A study of Homo sapiens with 40 samples.

Results

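The chromosome 19 zinc finger genes are described here as the protein-coding genes with a ZNF name on human chromosome 19 (GENCODE release 29, GRCh38) that averaged at least 10 counts over the 40 libraries of the series. The deposited table of 19962 genes holds 249 ZNF genes of this chromosome, of which 184 met the minimum and 15 had no count in any library. All 184 members were among the 11428 genes tested. Of the 184, 41 lie distal of PPP1R12C, between the gene that holds the AAVS1 locus and the end of the long arm, and 143 lie elsewhere on the chromosome. The members just above the minimum were ZNF93, ZNF223 and ZNF586, with mean counts of 10.1, 10.3 and 10.8. Just below it were ZNF20, ZNF709 and ZNF564, with mean counts of 9.225, 8.175 and 6.675.

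Most proteins of this family pair an array of C2H2 zinc fingers, which read DNA sequence, with a KRAB domain. The KRAB domain binds the corepressor TRIM28, which brings the histone methyltransferase SETDB1 and heterochromatin proteins to the bound site. Many of these proteins silence transposable elements, and the genes lie in tandem clusters on chromosome 19 that arose by repeated duplication. IGF2BP2 and IGF2BP3, the proteins targeted in this series, bind mRNAs in the cytoplasm and influence their stability and translation.

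All libraries were made from RKO cells, a human cell line from a colorectal carcinoma, equipped with doxycycline-inducible Cas9 and GFP. Each of 3 derived lines had received a lentiviral vector with a pair of guide RNAs and a blue fluorescent protein, against AAVS1 (sgAAVS1), IGF2BP2 (sgIGF2BP2) or IGF2BP3 (sgIGF2BP3). Each line was a pool of transduced cells sorted for blue fluorescence. Every line was treated with DMSO or with doxycycline (Dox, 250 ng/mL for 72 hours). Within a line, these groups differ in the drug, in induced Cas9 and GFP and in any cutting, which cannot be told apart. The sgIGF2BP2 line was also transfected with a non-targeting siRNA (siControl) or an siRNA pool against IGF2BP2 (siIGF2BP2), and the sgIGF2BP3 line with siControl or a pool against IGF2BP3 (siIGF2BP3), at 75 nM for 48 hours. All cells received 4-thiouridine (s4U) at 250 µM for 2 hours before poly(A) RNA was sequenced. There were 10 groups of 4 libraries, from 1 well per condition in quadruplicate. The labels do not say that the 4 wells were separate cultures, so p-values measure the spread between these samples, which may be technical.

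The AAVS1 guides are shown because the contrast between distal and other members starts from the locus they name. In the first, the capitals mark the protospacer-adjacent motif (PAM) that Cas9 needs beside its target, read from the RefSeq promoter window of PPP1R12C.
AAVS1 guide 1 with its PAM: cgctgtgccccgatgcacacTGG
AAVS1 guide 2: ggcgcgtcgctcgctcgctc
The first guide matched chr19:55117789-55117808 on the forward strand of GRCh38.p14. The match lies 152 bases upstream of the RefSeq start site of PPP1R12C, a reverse-strand gene that GENCODE places at 55090913 to 55117559. It was the only exact match among 35116 RefSeq promoter windows, and no GENCODE transcript of 206694 held it. The second guide had no exact match in these windows or transcripts, and its position in the genome was not analysed here.

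Total counts ranged from 1.00e+07 to 2.48e+07 per library. The members together held 0.244% to 0.290% of the counts of a library. The libraries carried epithelial KRT18 and KRT8 (means of 185 and 52.9 CPM, counts scaled to the library's size) and colonic CDX2 (19.5 CPM). KRT19, CDH1 and VIL1, which epithelial and colon cells usually express, averaged 0.018, 0.017 and 0.014 CPM. Summed markers of leukocytes reached at most 3.52 CPM, nearly all of it CD68, those of fibroblasts 1.10 CPM and those of endothelium 0.455 CPM, and CD3E, COL1A2 and DCN were at 0. The targeted genes were lower in the matching groups in edgeR's quasi-likelihood test, with log2 fold changes for IGF2BP2 of -1.34 after Dox and -1.84 after siIGF2BP2, and for IGF2BP3 of -1.68 and -2.78. IGF2BP3 was also lower after Dox in sgIGF2BP2 cells, with a log2 fold change of -0.25 ± 0.040 SE (adjusted p = 2.93e-06, edgeR) and all 4 Dox libraries below all 4 DMSO libraries. The library sgIGF2BP2 Dox replicate 2 stood apart from its replicates, with chi-square statistics per gene of 11.8 to 16.6 against them. No other pair of replicates was above 6.45. The next highest pairs, at 5.66 to 6.45, were those of siIGF2BP2 replicate 3, while the other pairs of its group were at 1.49 to 1.84. The main counts of the sgIGF2BP2 Dox group are given with and without replicate 2. Those of siIGF2BP2 are given with all 4 libraries.

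The members were low-abundance mRNAs. Their median mean count was 125, against 450 over all genes tested, and the median standard error of a log2 fold change in the sgAAVS1 Dox comparison was 0.12 for members and 0.065 for all genes. A share of members called therefore has to be read against a background measured with smaller errors. Translated coding sequence of the longest coding transcript held a KRAB A-box core pattern in 148 of 184 members (80.4%), against 31.9% of the 210 tested ZNF genes on other chromosomes. The pattern is a description of the sequence and can miss divergent KRAB domains. The number of C2H2 finger patterns ranged from 0 in ZNF738 to 32 in ZNF91, with a median of 12.

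Counting successive members less than 1 Mb apart gave 10 clusters of at least 5 members. The whole distal set formed 1 cluster, from 55476332 to 58481230, and was the one with the most members. The cluster just proximal of PPP1R12C held 30 members, from 51571298 to 53580269, of which 29 had the KRAB pattern. In the distal cluster, 28 of 41 did. The 13 distal members without the pattern were GC-rich, with a median GC content of 64.9%, against 46.1% in the 28 distal members with it and 41.8% in the 120 others with it.

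Levels were compared per kilobase of the longest coding transcript. Mean CPM per kb had a median of 11.5 in the 13 distal members without a KRAB pattern and of 2.17 in the 28 with one. On the other side the medians were 4.86 in 23 members without it and 2.16 in 120 with it. The 8 highest members per kb were ZNF787 (42.4), ZNF562 (35.9), ZNF580 (34.3), ZNF581 (30.5), ZNF428 (30.5), ZNF296 (24.8), ZNF146 (22.4) and ZNF444 (22.1). Of these, ZNF562 alone had the KRAB pattern, and 4 were distal. ZNF787 ranged from 75.9 ± 7.34 CPM (SD, n = 4) in sgIGF2BP3 siControl to 87.3 ± 8.24 CPM in sgAAVS1 DMSO, and the SDs of these groups overlap. The lowest were ZNF382 (0.117 CPM per kb), ZNF426 (0.192), ZNF93 (0.272) and ZNF223 (0.300). ZNF382, a gene often silenced by promoter methylation in carcinomas, averaged 0.978 CPM over the series. Transcript length and GC content can themselves affect counting, and their part in these levels was not tested.

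**Figure D1:**
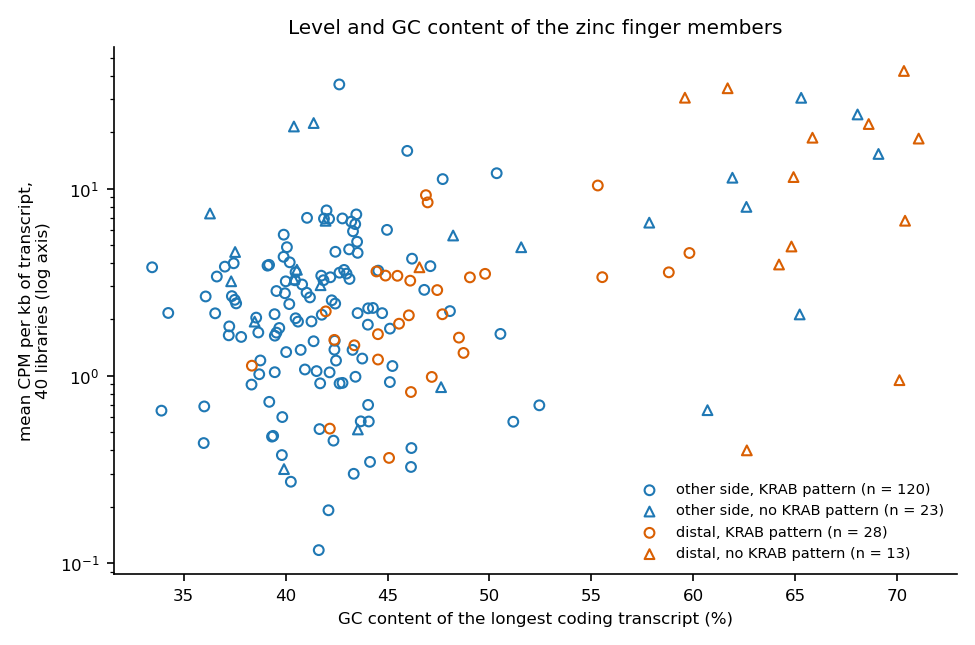
GC content of the longest coding transcript in percent (x axis) against mean CPM per kb of transcript over 40 libraries (y axis, log scale), 1 point per member; colour gives the side of PPP1R12C and shape the KRAB pattern. The 13 distal members without the pattern (orange triangles) have a median GC content of 64.9% and a median of 11.5 CPM per kb.

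Reads can be shared between paralogs. In 74 members at least 1 window of 100 bases of the transcript also occurred in a transcript of another gene, and in 31 more than 10% of windows did. In 5 members (ZNF320, ZNF490, ZNF223, ZNF724 and ZNF763) the share was over 50%. Exons of 49 members overlapped another gene on the same strand, and those of 23 overlapped one on the opposite strand. Whether the counting used strand is not given in the sources used here, so values of overlapping genes are uncertain.

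Few zinc finger genes on either side of AAVS1 were called when Cas9 was induced with the control guides. In sgAAVS1 cells, Dox against DMSO called 3 members higher and 3 lower at an adjusted p under 0.05 in edgeR's quasi-likelihood test with Benjamini-Hochberg adjustment over all genes. That is 1.63% of members in each direction, where 7.25% of all genes tested were called higher and 8.68% lower. Of the 41 distal members, 1 rose and 1 fell. The distal members had a median log2 fold change of -0.028, the 143 others 0.033, and all genes 0.0044. With GC and length trends removed, the distal median was -0.020 and that of the others -0.014. The 32 tested genes distal of PPP1R12C that are not ZNF genes had a median of -0.022. For comparison, the 250 tested genes on chromosome 17 that lie distal of SPOP had a median of -0.17, with 130 called lower, and SPOP itself, a substrate adaptor of an ubiquitin ligase, fell by 1.68 on the log2 scale in this comparison.

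PPP1R12C, which encodes a regulatory subunit of myosin phosphatase, was not called in sgAAVS1 cells (log2 fold change -0.032 ± 0.045 SE, adjusted p = 0.692 in edgeR's test). In the same test PPP1R12C was called higher after Dox in sgIGF2BP2 cells (0.14, adjusted p = 0.0158). It was also higher with siControl than with DMSO in sgIGF2BP2 (0.13, adjusted p = 0.0334) and sgIGF2BP3 cells (0.17, adjusted p = 0.00274). The 5 distal members nearest to it, from 359 to 503 kb away, were ZNF628, ZNF579, ZNF524, ZNF865 and ZNF784. Their log2 fold changes in sgAAVS1 cells ran from -0.16 to 0.12, none was called, and the 4 Dox libraries overlapped the 4 DMSO libraries in each. ZNF524, for example, was at 14.4, 14.8, 15.2 and 15.1 CPM with DMSO and 13.6, 15.6, 12.8 and 11.3 CPM with Dox. The 5 nearest on the other side, ZNF331, ZNF761, ZNF765, ZNF525 and ZNF845, ran from -0.097 to 0.064, again with none called and overlapping groups. In bulk RNA, fewer cells that carry a transcript and less of it per cell cannot be told apart.

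The 2 called distal members moved in opposite directions. ZNF580, at 55635016 to 55643469, was at 60.5, 58.4, 63.0 and 57.4 CPM with DMSO and 52.8, 50.6, 52.5 and 56.4 CPM with Dox. All Dox libraries lay below all DMSO libraries, with a log2 fold change of -0.17 ± 0.055 SE (adjusted p = 0.0261, edgeR). Its exons overlap those of ZNF581 and CCDC106 on the same strand. ZNF805, at 57240685 to 57255135, was at 6.67, 6.23, 5.64 and 5.06 CPM with DMSO and 7.89, 7.68, 7.33 and 7.12 CPM with Dox. It rose by 0.36 ± 0.12 (adjusted p = 0.0393, edgeR), without overlap.

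The other 4 called members, ZNF432, ZNF714, ZNF358 and ZNF578, lie proximal of PPP1R12C. ZNF432 was at 23.8, 19.8, 23.5 and 21.4 CPM with DMSO and 30.8, 26.4, 27.3 and 28.9 CPM with Dox, a rise of 0.37 ± 0.073 (adjusted p = 0.000148, edgeR). ZNF358 was at 32.7, 27.7, 32.2 and 29 CPM with DMSO and 24.2, 25.7, 26 and 23.5 CPM with Dox, a fall of 0.29 ± 0.075 on the log2 scale (adjusted p = 0.00372). In both genes the groups did not overlap. ZNF714 rose by 0.18 (adjusted p = 0.0284) and ZNF578 fell by 0.25 (adjusted p = 0.039), also without overlap. ZNF432 and ZNF358 kept their calls in all 15 alternative analyses. The other 4 lost theirs in 5 to 9 of 15, with adjusted p-values of up to 0.262 in edgeR or DESeq2. The count of 6 (3 higher, 3 lower) was 7 (2 higher, 5 lower) with trends of each library on GC content and length removed, and 3 with no filter on low counts. It was 3 without sgAAVS1 DMSO replicate 3 and 2 without sgAAVS1 Dox replicate 1. The distal median became -0.0055 without DMSO replicate 3 and -0.0039 without Dox replicate 2.

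**Figure D2:**
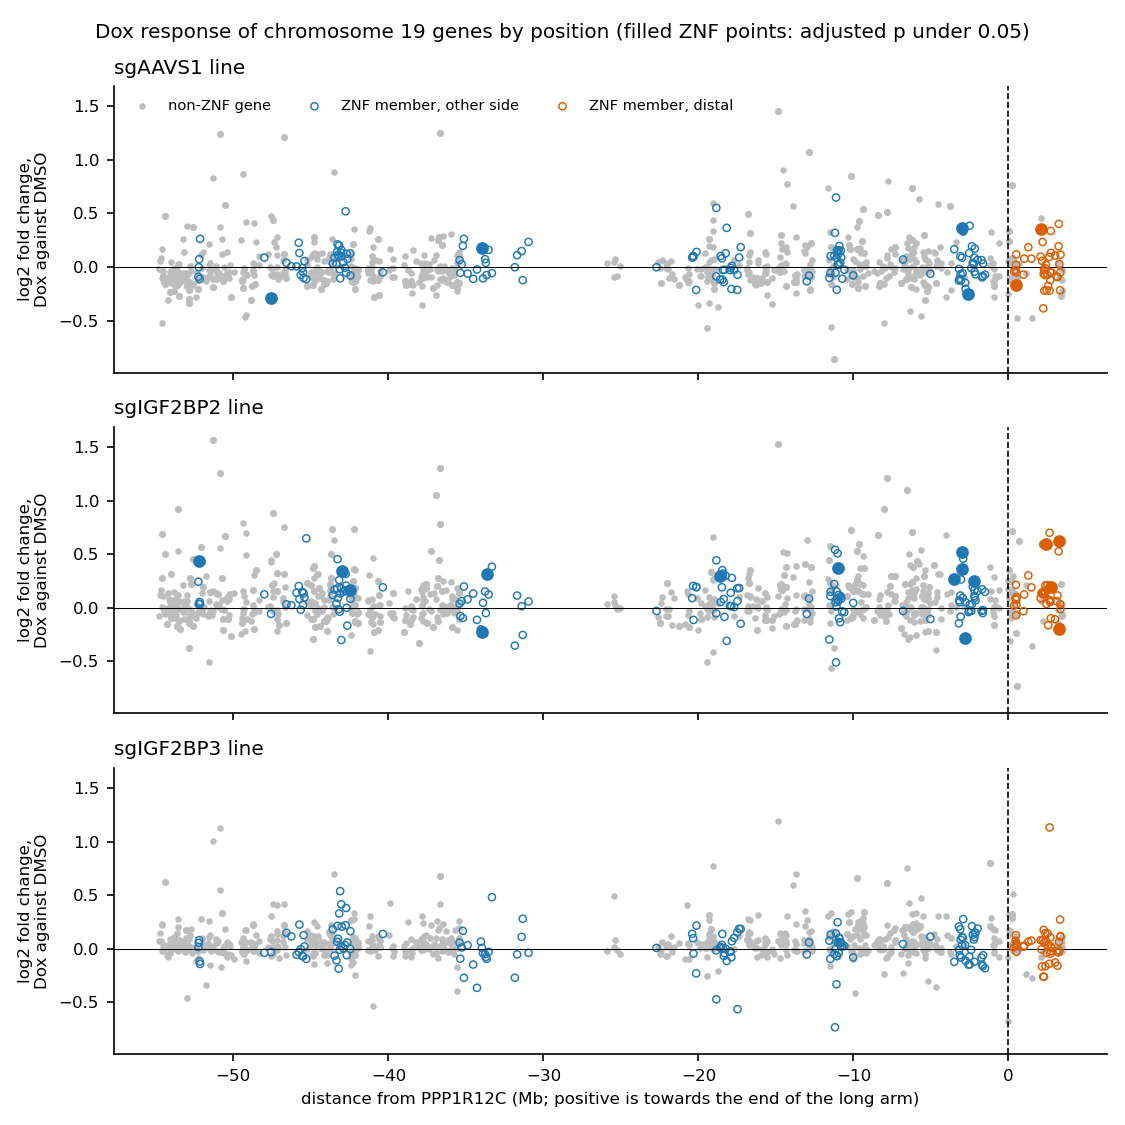
Log2 fold change of Dox against DMSO (y axis) for chromosome 19 protein-coding genes by distance from PPP1R12C in Mb (x axis, negative towards the short arm), 1 panel per line; grey points are non-ZNF genes, blue and orange points the members on either side, filled where called. In sgAAVS1 the distal members centre on -0.028 and the others on 0.033, with 1 filled distal point above 0 and 1 below it.

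After Dox in the line with guides against IGF2BP2, most of the family had log2 fold changes slightly above 0. In sgIGF2BP2 cells, Dox against DMSO called 13 members higher (7.07% of members, where 10% of all genes tested were higher) and 3 lower (1.63%, where 10.4% were lower). The members' median log2 fold change was 0.09, with 138 of 184 (75%) above 0, against a median of 0.0077 and 52.4% over all genes. The 41 distal members had a median of 0.11 (3 higher, 1 lower) and the 143 others 0.086 (10 higher, 2 lower). ZNF genes on other chromosomes had a median of 0.038, with 19 of 210 higher and 11 lower. By KRAB pattern, 12 of the 148 members with it rose, and 1 of the 36 without it; the difference was not tested. Without Dox replicate 2, which stood apart, 16 members were called higher (8.70%, as were 8.69% of all genes) and 1 lower (0.543%, where 9.34% of all genes were lower). The distal median was then 0.11 and that of the others 0.13, with 149 of 184 above 0, and 16 members with the KRAB pattern and none without it rose.

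ZNF841, a KRAB zinc finger gene at 52064466 to 52095765, was at 21.8, 23.5, 26 and 23.1 CPM with DMSO and 35.4, 31.0, 33.5 and 37.5 CPM with Dox. All Dox libraries exceeded all DMSO libraries, with a log2 fold change of 0.52 ± 0.067 SE (adjusted p = 7.15e-09, edgeR). Its neighbour ZNF432 was at 26.9, 22, 23.4 and 24.6 CPM with DMSO and 33.1, 26.7, 32.0 and 33.2 CPM with Dox, a rise of 0.36 ± 0.071 (adjusted p = 8.28e-05) in which replicate 2 of Dox fell among the DMSO values. The exons of ZNF841 and ZNF432 overlap on the same strand, with no window of 100 bases shared between their longest coding transcripts and those of other genes.

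ZNF550, a distal member, was at 6.62, 5.49, 6.89 and 5.94 CPM with DMSO and 10.3, 8.35, 9.23 and 10.6 CPM with Dox, a rise of 0.60 ± 0.12 (adjusted p = 0.00019, edgeR) without overlap. ZNF556, in the cluster nearest the end of the short arm, was at 11.6, 15.0, 12.9 and 15.3 CPM and 18.4, 18.8, 18.9 and 17.8 CPM, a rise of 0.44 ± 0.091 (adjusted p = 0.000175). These 4 genes kept their calls in all 15 alternatives. ZNF837 (log2 fold change 0.62, adjusted p = 0.0498) and ZNF284 (0.37, adjusted p = 0.0412) had overlapping groups and lost theirs in 11 and 9 of 15, with edgeR or DESeq2 adjusted p-values of up to 0.192 and 0.317. In ZNF284, 42.5% of windows also occur in another transcript.

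The 3 members that fell were ZNF766, ZNF714 and ZNF584. ZNF714 was at 32.1, 32.1, 33.2 and 29.2 CPM with DMSO and 28.7, 26.3, 26 and 27.4 CPM with Dox, a fall of 0.23 ± 0.060 on the log2 scale (adjusted p = 0.0033, edgeR). ZNF766 fell by 0.28 (adjusted p = 0.0134) and the distal ZNF584 by 0.20 (adjusted p = 0.028). In all 3 the groups did not overlap. ZNF766 lost its call without sgIGF2BP2 DMSO replicate 1 or Dox replicate 2, at an adjusted p of up to 0.121, and ZNF584 lost its in 5 of 15 alternatives. Fitting this line's 2 groups alone gave 10 members in place of 16. Without Dox replicate 2, the library that stood apart, 17 were called and the median of the 143 other members was 0.13; without Dox replicate 4 it was 0.047.

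Knockdown of IGF2BP2 by siRNA gave the most calls of any comparison. Against siControl, siIGF2BP2 called 36 members higher (19.6%, where 18.4% of all genes tested were higher) and 7 lower (3.8%, where 18.4% were lower). The share called higher was close to that of all genes, and the share called lower was below it. The members' median was 0.10, with 130 of 184 (70.7%) above 0, against 0.011 and 52.1% over all genes. The 41 distal members had 9 higher and none lower (median 0.086), and the 143 others 27 higher and 7 lower (median 0.11). ZNF genes on other chromosomes had 42 of 210 higher and 14 lower, with a median of 0.072. Of the 148 members with the KRAB pattern 26 rose, and of the 36 without it 10.

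ZNF83, which has C2H2 fingers and no KRAB pattern, was at 11.8, 13.5, 12.7 and 12.5 CPM with siControl and 17.6, 19.3, 17.6 and 17 CPM with siIGF2BP2. It rose by 0.50 ± 0.083 SE (adjusted p = 1.24e-06, edgeR), without overlap. ZNF446, the distal member nearest the end of the arm, was at 8.26, 8.59, 7.59 and 8.82 CPM and 13, 10.2, 13.4 and 11.1 CPM, a rise of 0.52 ± 0.11 (adjusted p = 9.24e-05). Its exons overlap ZNF324 on the same strand and SLC27A5 on the opposite strand, and ZNF324 also rose, by 0.22 (adjusted p = 0.011). In both genes the siIGF2BP2 libraries lay above all siControl libraries.

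The greatest rises were in genes near the detection limit. ZNF233 was at 1.17, 0.984, 1.03 and 0.452 CPM with siControl and 2.25, 2.16, 1.49 and 1.62 CPM with siIGF2BP2, a rise of 0.98 ± 0.28 (adjusted p = 0.00423, edgeR). The distal ZNF497 rose by 0.86 ± 0.23 (adjusted p = 0.00194), from 0.867, 1.70, 1.52 and 1.43 CPM to 2.25, 2.16, 2.60 and 2.74 CPM. ZNF331, an imprinted gene, rose by 0.80 ± 0.25 (adjusted p = 0.00896), from 1.48, 0.984, 1.31 and 1.58 CPM to 2.60, 2.16, 2.31 and 2.31 CPM. None of the 3 had overlapping groups, and all kept their calls in 15 of 15 alternatives, as did ZNF83 and ZNF446. ZNF837 rose by 0.62 (adjusted p = 0.029) and lost the call in 7.

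Of the 7 that fell, ZNF420 was at 7.70, 7.74, 7.04 and 8.66 CPM with siControl and 5.80, 5.85, 5.06 and 6.24 CPM with siIGF2BP2, a fall of 0.43 ± 0.12 on the log2 scale (adjusted p = 0.00243, edgeR) without overlap that held in 15 of 15 alternatives. ZNF181 fell by 0.50 (adjusted p = 0.00656), with overlapping groups, and was not called without siControl replicate 1 (adjusted p = 0.0728). ZNF441 fell by 0.36 (adjusted p = 0.0158), without overlap, and was not called without siControl replicate 2 or siIGF2BP2 replicate 2 (adjusted p of up to 0.0895). ZNF615, ZNF792 and ZNF45 fell by 0.45, 0.30 and 0.24 with overlapping groups and lost their calls in 5 to 8 of 15. None of the 7 was distal.

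Dox and siIGF2BP2 in the sgIGF2BP2 line shared 6 called members, all higher in both: ZNF844, ZNF493, ZNF175, ZNF841, ZNF587 and ZNF837. They are 37.5% of the 16 called after Dox and 14.0% of the 43 called after siRNA. Over all genes tested, 1050 were called in both, which are 45.1% of the 2326 called after Dox and 25% of the 4202 called after siRNA; 331 of them were higher in both, 351 lower in both and 368 opposite. Counted in either direction, the overlap of the members was thus no greater a share than that of all genes. Among calls in the higher direction it was a greater share. There the 6 were 46.2% of the 13 members called higher after Dox and 16.7% of the 36 called higher after siRNA. The shares over all genes called higher were 28.96% and 15.8%. Without Dox replicate 2 the overlap was 9 members, 8 higher in both and 1 opposite. The 9 were 52.9% of members called after Dox and 19.1% after siRNA, where the shares over all genes were 45.8% and 22.1%. The 8 were 50% and 20.5% of members called higher, where the shares over all genes were 27.5% and 12.8%. No difference between these shares was tested. The comparisons used the same line and no common library. ZNF841 was at 27.3, 23.9, 27.1 and 26.3 CPM with siControl and 33.7, 30.8, 26.4 and 32.5 CPM with siIGF2BP2, a rise of 0.24 ± 0.067 (adjusted p = 0.0035, edgeR) in which replicate 3 fell among the siControl values. ZNF844 rose by 0.34 after Dox and 0.42 after siRNA, and in both its groups did not overlap. Several members were called under 1 method and not the other. ZNF83 and ZNF446 had log2 fold changes of -0.029 and -0.012 after Dox, and ZNF550 and ZNF556 of 0.11 and -0.023 after siRNA, none of them called. The difference between the methods was not tested.

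**Figure D3:**
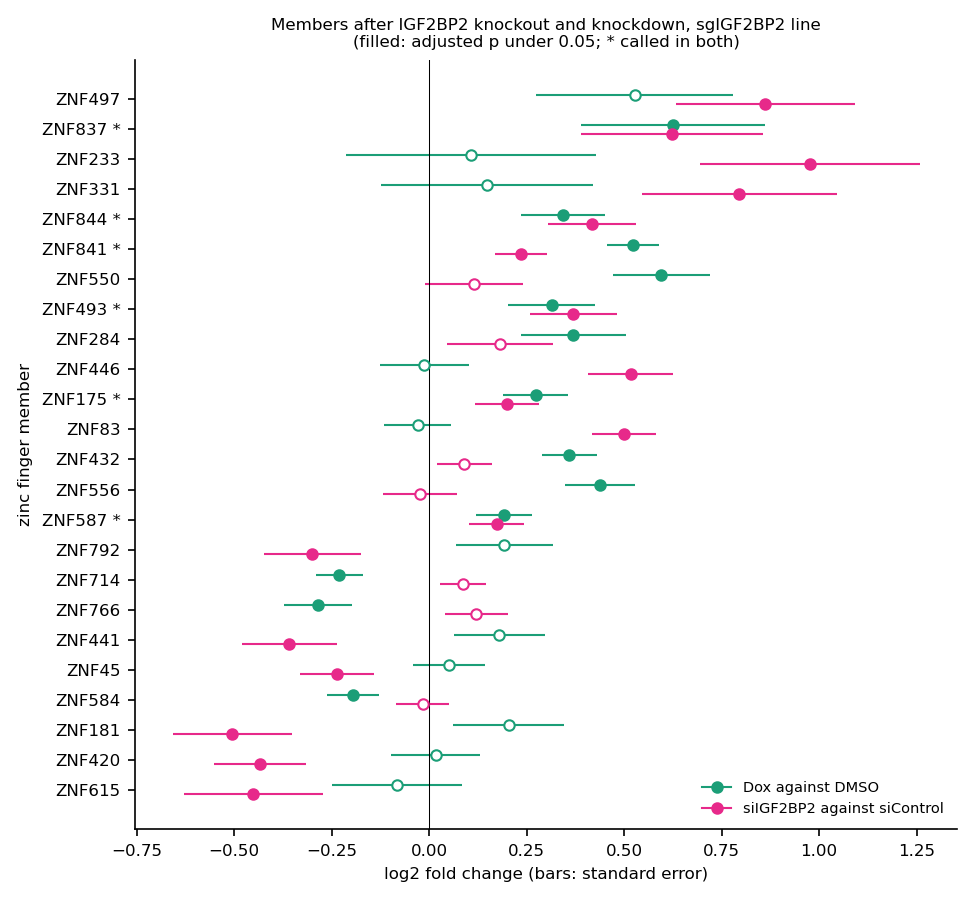
Log2 fold change with its standard error (x axis) of 24 named members (y axis) in the sgIGF2BP2 line, after Dox (green) and after siIGF2BP2 (pink); filled points passed an adjusted p of 0.05, and asterisks mark the 6 called in both. ZNF841 is at 0.52 and 0.24, while ZNF83 is at -0.029 after Dox and 0.50 after siRNA.

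Few members, and few genes of the whole table, were called in the comparisons that targeted IGF2BP3. Its mRNA remained at 31.2% of the DMSO mean after Dox and at 14.6% of the siControl mean after siIGF2BP3. Protein levels were not analysed here. Dox against DMSO in sgIGF2BP3 cells called no member in edgeR's test, where 1.64% of all genes were higher and 1.01% lower. DESeq2 also called none, 9 of 184 members (4.89%) had an unadjusted p under 0.05, as had 16.6% of all genes, and 1 was called without Dox replicate 1. The distal median was 0.028 and that of the others 0.014. After siIGF2BP3, 2 members were higher (1.09%, where 0.936% of all genes were higher) and none lower (where 1.4% were lower). An unadjusted p under 0.05 was found in 22 members (12%), where 13.8% of all genes had one. The members' median was 0.07, with 130 of 184 above 0, against 0.0015 and 50.7% over all genes. The distal median was 0.10 and that of the others 0.058, and ZNF genes on other chromosomes were at 0.059.

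ZNF841 was again among the called. It was at 24.9, 23.4, 24.6 and 24.3 CPM with siControl and 31.1, 31.6, 29.1 and 27.9 CPM with siIGF2BP3, a rise of 0.31 ± 0.069 SE (adjusted p = 0.00346, edgeR) without overlap that held in 15 of 15 alternatives. The distal ZNF579 was at 45.0, 47.8, 49.8 and 49.7 CPM and 55.0, 50.7, 55.0 and 59.3 CPM, a rise of 0.19 ± 0.055 (adjusted p = 0.0463). Its call was lost in 9 of 15 alternatives (edgeR adjusted p of up to 0.219), 7 of them the removal of 1 of the 8 libraries. The count of 2 was 1 in those removals.

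Members were more often lower than higher with the non-targeting siRNA than with DMSO. These groups differ in transfection and in DMSO together, which cannot be told apart, and they share the siControl libraries with the siRNA comparisons above and the DMSO libraries with the Dox comparisons. In sgIGF2BP2 cells, siControl against DMSO called no member higher and 9 lower (4.89%), where 10.2% of all genes tested were higher and 8.16% lower. In sgIGF2BP3 cells, 1 was higher (0.543%, where 10.9% of all genes were) and 17 lower (9.24%, where 8.54% were). The members' medians were -0.035 and -0.11, with 38.6% and 24.5% above 0, against 49.3% and 48.7% of all genes. In sgIGF2BP3 cells the distal median was -0.074 and that of the others -0.11.

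In sgIGF2BP3 cells, ZNF850, a gene with 29 finger patterns, was at 27.3, 29.6, 25.2 and 29 CPM with DMSO and 21.2, 22.8, 19.7 and 21.8 CPM with siControl. It fell by 0.38 ± 0.075 SE on the log2 scale (adjusted p = 0.00011, edgeR), without overlap and in 15 of 15 alternatives. ZNF845 fell by 0.35 ± 0.10 (adjusted p = 0.0108), from 12.6, 12.5, 15.7 and 13.2 CPM to 11.4, 10.2, 9.62 and 11.1 CPM, and lost the call without DMSO replicate 3 (adjusted p = 0.0796). ZNF699 fell by 0.50 (adjusted p = 0.00912) with overlapping groups and lost the call without siControl replicate 3 (adjusted p = 0.0557). ZNF773, ZNF724 and ZNF155 fell by 0.52, 0.42 and 0.40 with overlapping groups and lost their calls in 7 to 8 of 15. The distal ZNF865 rose by 0.18 ± 0.049 (adjusted p = 0.00384), from 66.8, 69.1, 66.7 and 68.8 CPM to 76.2, 78.2, 76.2 and 77.7 CPM, without overlap. It lost the call when trends with GC content and length were removed (adjusted p = 0.0891 at most). The count of 18 was 11 without sgIGF2BP3 DMSO replicate 3 or siControl replicate 1 and 10 without siControl replicate 3.

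In sgIGF2BP2 cells the named members that fell were ZNF260, ZNF578, ZNF761, ZNF324, ZNF227 and ZNF584, by 0.20 to 0.27 on the log2 scale, and all but ZNF260 without overlap. Each lost its call in 3 to 7 of 15 alternatives. The count of 9 rested on single libraries: it was 1 without siControl replicate 4, 2 without DMSO replicate 4, and 4 without DMSO replicate 1, DMSO replicate 3 or siControl replicate 2. ZNF121, ZNF146, ZNF227 and ZNF761 were called lower with siControl in both lines. ZNF121 fell by 0.12 (adjusted p = 0.0468, edgeR) and by 0.28 (adjusted p = 1.59e-06).

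With DMSO alone, no member was called between the 3 lines. Of all genes tested, 0.0175% (2 of 11428) were called between sgIGF2BP2 and sgAAVS1, 0.0175% between sgIGF2BP3 and sgAAVS1 and 0.0175% between sgIGF2BP3 and sgIGF2BP2 in edgeR's test. No member was among them, DESeq2 also called none, and 11, 9 and 9 members (5.98%, 4.89% and 4.89%) had an unadjusted p under 0.05, where 6.32%, 11.6% and 5.71% of all genes had one. The distal medians were -0.034, -0.033 and 0.025.

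The Dox response of 5 members differed between lines when the difference itself was tested. Subtracting the sgIGF2BP2 response from that of sgAAVS1 called 1 member higher (0.543%, where 2.97% of all genes were) and 2 lower (1.09%, where 4.01% were). ZNF714, which rose in sgAAVS1 cells and fell in sgIGF2BP2 cells, differed by 0.41 ± 0.085 SE (adjusted p = 0.00077, edgeR). ZNF841 differed by -0.44 ± 0.099 (adjusted p = 0.00241), with a response of 0.088 in sgAAVS1 cells and 0.52 in sgIGF2BP2 cells. Both held in every alternative. ZNF550 differed by -0.57 ± 0.18 (adjusted p = 0.0369) and lost the call in 10 of 23 alternatives. ZNF432, which rose in both lines by nearly the same amount, was not among these 3.

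Subtracting the sgIGF2BP3 response called 1 member higher (0.543%, where 3.25% of all genes were) and 1 lower (0.543%, where 4.53% were). ZNF324B, a distal KRAB member, was at 15.8, 16.7, 13.3 and 15.4 CPM with DMSO and 12.8, 14.8, 12.2 and 13 CPM with Dox in sgAAVS1 cells. In sgIGF2BP3 cells it was at 12, 12.8, 13.2 and 11.8 CPM and 13.6, 15.6, 14.4 and 16.3 CPM. The responses of -0.22 and 0.27 were not called on their own, and differed by -0.49 ± 0.12 (adjusted p = 0.00597, edgeR) in every alternative. ZNF432 differed by 0.34 ± 0.10 (adjusted p = 0.0308) and lost the call in 8 of 23. With GC and length trends removed, 2 members were lower and none higher. The count of 2 was 1 without any one of 6 libraries, sgAAVS1 DMSO replicate 2, sgAAVS1 Dox replicates 1 and 4, sgIGF2BP3 DMSO replicate 3 and sgIGF2BP3 Dox replicates 2 and 4.

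Between the siRNA pools, siIGF2BP3 minus siIGF2BP2, 1 member was higher (0.543%, where 9.88% of all genes were) and 7 lower (3.8%, where 8.82% were). The lower ones were ZNF430, ZNF226, ZNF83, ZNF446, ZNF160, ZNF358 and ZNF580. ZNF226 was at 14.1, 12.7, 16.0 and 13.6 CPM with siControl and 21.0, 18.5, 19.9 and 19.3 CPM with siIGF2BP2. In the sgIGF2BP3 line it was at 13, 11.8, 13.8 and 11.9 CPM with siControl and 12, 12.9, 11.9 and 12.1 CPM with siIGF2BP3. The effects differed by -0.52 ± 0.13 SE (adjusted p = 0.00189, edgeR). ZNF83 differed by -0.46 ± 0.12 (adjusted p = 0.00425) and ZNF160 by -0.33 ± 0.095 (adjusted p = 0.00942). ZNF420, the 1 higher, differed by 0.62 ± 0.17 (adjusted p = 0.00493). These 4 and ZNF430 held in every alternative, while ZNF446 and ZNF358 lost the call in 12 and 11 of 23. With GC and length trends removed, 4 members were higher and 8 lower, and with DESeq2's size factors 2 were higher and 6 lower.

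**Figure D4:**
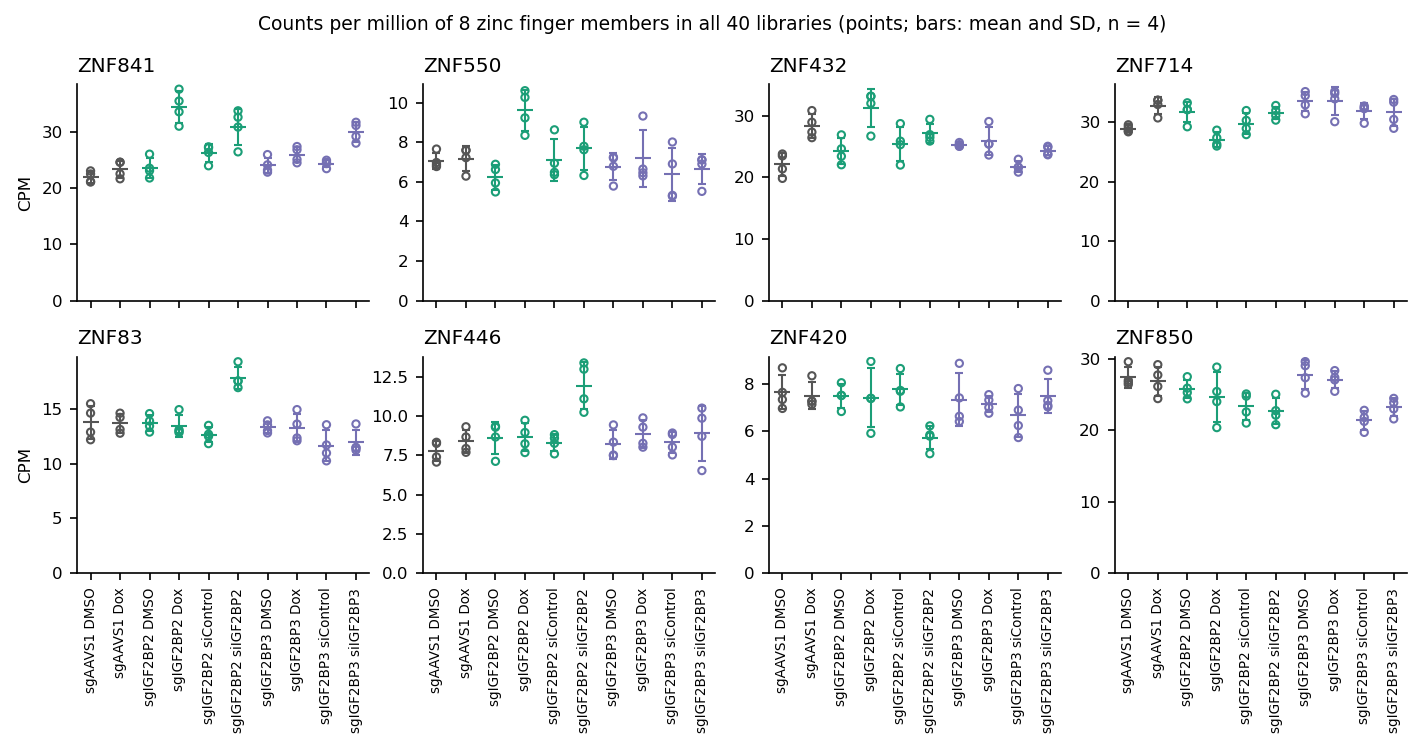
CPM (y axis) of 8 named members in all 40 libraries, grouped by line and treatment (x axis); points are libraries and bars the mean and SD of 4. ZNF841 stands highest in sgIGF2BP2 Dox (31.0 to 37.5 CPM) and is also raised with both siRNA pools, while ZNF83 is above 16 CPM with siIGF2BP2 alone.

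Of the 11 members with a reported role, 3 (27.3%) were called in at least 1 of the 3 Dox, 2 siRNA and 2 siControl comparisons, against 69 of all 184 members (37.5%). The group holds ZNF91 and ZNF93, reported repressors of SVA and LINE-1 elements, ZNF649, ZNF808, a gene needed for pancreas development, ZNF417 and ZNF587, reported repressors of the endogenous retrovirus HERVK, ZNF382, ZNF224, ZNF146, ZNF331 and ZNF460. ZNF91 was not called in any of the 13 comparisons, with log2 fold changes of 0.11, 0.11 and -0.055 after Dox in the 3 lines and of 0.14 and 0.087 after siIGF2BP2 and siIGF2BP3. ZNF587 was at 23.7, 22.9, 21.4 and 22.3 CPM with DMSO and 29.9, 22.3, 24.1 and 26.7 CPM with Dox in sgIGF2BP2 cells, a rise of 0.19 (adjusted p = 0.0434, edgeR) with overlapping groups. It rose by 0.17 after siIGF2BP2 (adjusted p = 0.0459) and fell by 0.21 with siControl in sgIGF2BP3 cells (adjusted p = 0.0285). Its paralog ZNF417 was not called, with 0.19 ± 0.13 after Dox and -0.11 ± 0.13 after siIGF2BP2, and shares 26% of windows with other transcripts, against 12.4% for ZNF587. ZNF146, which consists almost wholly of zinc fingers, fell with siControl in both lines by 0.13 and 0.14 (adjusted p = 0.0447 and 0.0323). The other 7 apart from ZNF331 had no call.

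TRIM28, SETDB1 and other chromatin-related genes, not only direct partners of the KRAB domain, were measured as a list of 32 genes, all tested. Their median mean count was 1404, against 450 over all genes, so smaller differences can be called in them. After Dox, 14 of the 32 (43.8%) were lower and 1 (3.12%) higher in sgIGF2BP2 cells, where 10.4% of all genes were lower and 10% higher, with a median of -0.08, against 0.0077 over all genes. Without Dox replicate 2, 13 (40.6%) were lower and 1 (3.12%) higher, where 9.34% and 8.69% of all genes were. The lower ones included DNMT1, which maintains DNA methylation (-0.29), its recruiter UHRF1 (-0.27), the histone methyltransferase SUV39H1 (-0.29) and the heterochromatin protein CBX1 (-0.22). TRIM28 was at -0.075 there (adjusted p = 0.108, edgeR) and was not called. In sgAAVS1 cells 6 (18.8%) were lower and 1 higher, where 8.68% and 7.25% of all genes were, among them TRIM28 (-0.22, adjusted p = 1.11e-06), UHRF1 (-0.28) and DNMT1 (-0.17). After siIGF2BP2, 4 (12.5%) were lower and 3 (9.38%) higher, below the 18.4% of all genes called in each direction, with SMARCAD1, a chromatin remodeller, at -0.49 and SETDB1 at 0.22. In sgIGF2BP3 cells 1 (3.12%) was higher and none lower after Dox, where 1.64% of all genes were higher and 1.01% lower. After siIGF2BP3 none was higher and 1 (3.12%) lower, where 0.936% and 1.4% of all genes were. With siControl, 5 (15.6%) were lower and 3 (9.38%) higher in sgIGF2BP2 cells, and 6 (18.8%) lower and 3 (9.38%) higher in sgIGF2BP3 cells, where 8.16% and 8.54% of all genes were lower and 10.2% and 10.9% higher.

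Library by library, the level of the family moved with treatment by small amounts. Each member's log2 CPM was set against its mean over the 40 libraries, and the median over all 184 was taken per library. In sgIGF2BP3 cells it lay between -0.099 and -0.073 in the 4 siControl libraries and between -0.023 and 0.026 with DMSO, so these groups did not overlap. In sgIGF2BP2 cells it lay between -0.077 and -0.022 with siControl and between 0.0012 (replicate 3) and 0.084 with siIGF2BP2, also without overlap. With Dox in the same line it ran from -0.034 to 0.15. The lowest of those 4 libraries was replicate 2, at -0.033 for distal and -0.044 for other members, while the other 3 lay at 0.059 to 0.12 and 0.091 to 0.17. Replicate 2 had the highest total count of its group, 17737761 against 10018181 to 13081805. The part of depth or of this library's difference in the result was not tested. In sgIGF2BP3 cells with siIGF2BP3, all 4 distal medians (0.0040 to 0.028) lay above all 4 medians of the other members (-0.079 to -0.014). The same held with siControl in that line, at -0.0836 to -0.0551 for distal and -0.109 to -0.0845 for other members.

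**Figure D5:**
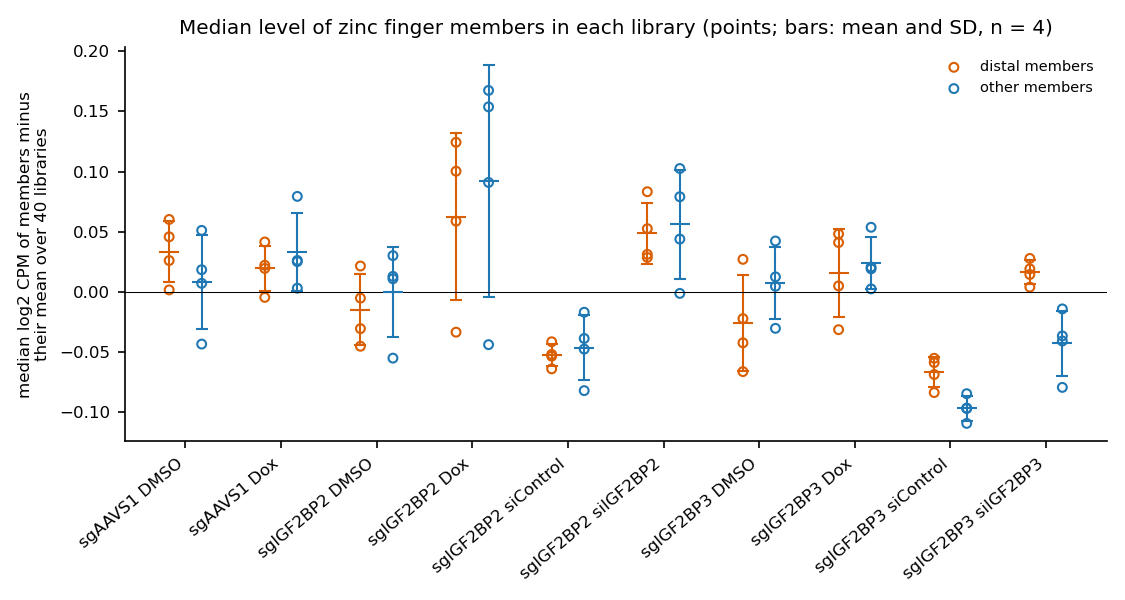
Median over members of log2 CPM minus each member's mean over 40 libraries (y axis), for each library in its group (x axis); orange points are the 41 distal members, blue points the 143 others, and bars the mean and SD of 4 libraries. In the sgIGF2BP2 Dox group, 1 library lies at -0.033 and -0.044, below the other 3.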

How the data were processed

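Poly(A) RNA of 40 RKO libraries was sequenced, and the authors deposited 1 table of read counts for 19962 Ensembl genes. Per the submitters' processing notes, bcl2fastq 2.20.0.422, STAR 2.7.5c and hg38 were used; the counting tool, its annotation and its use of strand are not given in the sources used here. Gene names, positions and transcript features came from GENCODE 29 on GRCh38, which named 19847 identifiers, and promoter windows from RefSeq on GRCh38.p14. Counts were fitted in edgeR 4.0.16 (R 4.3.3) with TMM scaling, filterByExpr, 1 coefficient per group over all 40 libraries and the quasi-likelihood test, with Benjamini-Hochberg adjustment over 11428 genes. A gene was called at an adjusted p under 0.05. CPM values are scaled by TMM, and standard errors are on the log2 scale. Total counts ranged from 10018181 to 24822807.

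The members and lists were chosen with earlier results of these data known. Named were up to 6 members called in each direction per comparison, those with the greatest fold changes, every called distal member and the 5 nearest to PPP1R12C on each side in the sgAAVS1 Dox comparison, the 8 highest and 4 lowest members per kb, a group with reported roles, and the targeted genes. ZNF91, ZNF587 and other members outside these ranks were named as part of that group or of a count; ZNF121, ZNF175, ZNF324, ZNF493 and ZNF844 were chosen after their values were seen. Alternatives were DESeq2's size factors, no filter, DESeq2 1.42.0's Wald test, the replicate number as a block, an offset for GC content and length, both together, only the groups compared, and leaving out each library. A protein table and a genome sequence were not used here.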

Additional observations from a re-analysis of the deposited data

Results flagged for a closer look

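Of 114 groups of 4 libraries checked for the named members, 1 held a library far from the other 3. Many of these members were named because they were called in the same data, so this count was not set against a chance rate. ZNF441 was at 9.64 CPM in sgIGF2BP2 siControl replicate 2 and at 8.32 to 8.51 CPM in the other 3 libraries.

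The response of 13 members differed between lines or siRNA pools in edgeR's test of the difference itself. Between the Dox responses of sgAAVS1 and sgIGF2BP2 cells, the log2 difference was 0.41 for ZNF714, -0.44 for ZNF841 and -0.57 for ZNF550. Between those of sgAAVS1 and sgIGF2BP3 cells it was 0.34 for ZNF432 and -0.49 for ZNF324B. Between siIGF2BP3 and siIGF2BP2 it was 0.62 for ZNF420, -0.54 for ZNF430, -0.52 for ZNF226, -0.46 for ZNF83, -0.44 for ZNF446, -0.33 for ZNF160, -0.28 for ZNF358 and -0.21 for ZNF580. The siRNA pools were used in different lines, so the pool and the line cannot be told apart in these differences.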

How the results depend on the processing

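Of the 59 calls chosen by the naming rule, targeted genes and SPOP included, 28 kept their call in every alternative and 31 lost it in at least 1. Deviations of same-numbered libraries had correlations of -0.090 to 0.097 over 10 comparisons, none with every pair over 0.1. The main fit did not pair libraries by replicate number, and correlations this small cannot exclude a weak pairing. With the replicate block, 6, 17, 0, 45, 2, 9 and 19 members were called in the 3 Dox, 2 siRNA and 2 siControl comparisons, none in the DMSO comparisons, and 3, 2 and 10 in the differences. In 2 comparisons, siControl against DMSO in sgIGF2BP2 and DMSO in sgIGF2BP3 against sgAAVS1, all 4 numbers correlated best with their own.

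Without a filter, 3 members were called in sgAAVS1 Dox. With only the groups compared, 10 were called in sgIGF2BP2 Dox. With the GC and length offset, the other members' median was -0.014 in sgAAVS1 Dox, 0.058 in sgIGF2BP3 Dox, -0.083 in sgIGF2BP3 siControl and -0.070 in the sgAAVS1 minus sgIGF2BP3 difference, where the distal median was 0.0077; 7 members were called in sgAAVS1 minus sgIGF2BP2. With the block as well, these were 0.057, -0.080, -0.070, 0.0070 and 8 for the last 5, and 13 members were called between siRNA pools. The cause was not tested. In sgAAVS1 Dox, uncalled log2 fold changes turned with the offset, and with offset and block, in ZNF579 (0.0038 and 0.0028), ZNF761 (-0.026 and -0.029) and PPP1R12C (0.00052 and 0.0017).

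Leaving out 1 library at a time gave 2 to 6 members in sgAAVS1 Dox, 0 to 1 in sgIGF2BP3 Dox, 1 to 2 with siIGF2BP3, 1 to 9 and 10 to 15 with siControl in sgIGF2BP2 and sgIGF2BP3, and 1 to 3 for sgAAVS1 minus sgIGF2BP3. Distal medians ranged from -0.045 to -0.0039 in sgAAVS1 Dox, -0.061 to 0.0061 for sgAAVS1 minus sgIGF2BP3, -0.040 to 0.031 between siRNA pools, -0.054 to -0.028 for sgIGF2BP2 against sgAAVS1 and -0.0068 to 0.040 for sgIGF2BP3 against sgIGF2BP2 with DMSO. The other members' median ranged from -0.13 to -0.083 in sgIGF2BP3 siControl. In sgAAVS1 Dox, uncalled values ranged from -0.072 to 0.018 for ZNF628, -0.072 to 0.011 for ZNF579, -0.0091 to 0.051 for ZNF865, -0.34 to 0.089 for ZNF331, -0.018 to 0.076 for ZNF761, -0.012 to 0.14 for ZNF845 and -0.052 to 0.0030 for PPP1R12C. The median standard error of a member's log2 fold change was 0.11 to 0.12 in the comparisons of 4 libraries against 4, which limits what these depths can show for single members.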
